A study of Mus musculus with 4 samples.

Results

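Neuronal calcium-binding proteins were followed as 9 transcripts (Calb1, Calb2, Pvalb, Hpca, Hpcal1, Hpcal4, Vsnl1, Ncald and Ncs1), out of 52636 genes in the count table of the study. Members were chosen by gene symbol, and each symbol had 1 row. Of the 9, 8 had enough counts to be tested, and Pvalb did not. RNA came from cells sorted from the dentate gyrus, the hippocampal region in which granule neurons are born in adult mice. The animals were Fmr1-/y males, which lack the fragile X protein FMRP, and their wild type (WT) littermates. All were C57BL/6 mice aged 6 to 7 weeks. The design text gives the cells of both genotypes as DCX-DsRed cells, that is, cells with a reporter in which the promoter of doublecortin (Dcx), a microtubule protein of neuroblasts and immature neurons, drives a red fluorescent protein. There were 2 Fmr1 knockout (Fmr1-KO) libraries and 2 WT libraries, each from 10000 sorted cells. The protocol, by contrast, speaks of living cells either in total or with the reporter, and does not assign one of these gates to a library. The knockout allele is not named, and nothing states that same-genotype libraries were made from different mice. Each p-value is therefore relative to library spread, some of which may be technical.

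All 9 proteins bind calcium through EF-hands, helix-loop-helix units whose loop holds the ion. Calbindin (Calb1), calretinin (Calb2) and parvalbumin (Pvalb) are soluble buffers that shape the height and length of calcium signals. In the mouse dentate gyrus, calretinin appears for a short time in young postmitotic granule neurons and is later replaced by calbindin, the buffer of mature granule neurons, while parvalbumin marks fast-spiking interneurons. Calretinin is also made by mossy cells and by some interneurons. The other 6 belong to the neuronal calcium sensors. Most of them carry an N-terminal myristoyl group that calcium binding exposes, so that the protein moves to membranes. Hippocalcin (Hpca) is abundant in hippocampal neurons and takes part in the slow afterhyperpolarization. Hpcal1, Ncald (neurocalcin delta), Hpcal4 and Vsnl1 (visinin-like) are its close relatives, and Ncs1, called frequenin in Drosophila, modulates synaptic transmission and calcium channels.

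The sensors are similar in sequence, which matters for how reads are assigned among them. The longest complete coding sequences of the 6 sensor genes in GENCODE M21 (GRCm38) were 63.8% to 86.0% identical over their 15 pairs, highest for Hpca and Hpcal1. The first EF-hand loop found by the PROSITE pattern covers codons 73 to 84 in each of the 6. Its 36 coding bases are shown to let the degree of similarity be seen, with capitals marking bases that differ from Hpca:
Hpca: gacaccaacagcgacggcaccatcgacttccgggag
Hpcal1: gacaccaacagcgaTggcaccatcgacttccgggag
Hpcal4: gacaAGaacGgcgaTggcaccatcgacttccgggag
Vsnl1: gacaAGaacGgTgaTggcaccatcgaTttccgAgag
Ncald: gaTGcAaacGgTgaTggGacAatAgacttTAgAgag
Ncs1: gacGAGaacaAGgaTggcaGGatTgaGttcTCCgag
Hpcal1 differed from Hpca at 1 of these bases, Hpcal4 at 4, Vsnl1 at 7, Ncald at 12 and Ncs1 at 13. These stretches lie at chr4:129118490-129118525 (minus strand) for Hpca, chr12:17786387-17786422 (plus strand) for Hpcal1, chr4:123189079-123189114 (plus strand) for Hpcal4, chr12:11332127-11332162 (minus strand) for Vsnl1 and chr15:37397183-37397218 (minus strand) for Ncald, each within a coding exon, and the Ncs1 loop spans an exon junction on chromosome 2. Despite this similarity, the longest run of identical bases between transcripts of any 2 of the 9 members was 46 bases, found between Hpca and Ncald, and the reads were 100 bases long. The buffers are more distant, with 63.6% identity between the coding sequences of Calb1 and Calb2 and a longest shared run of 12 bases. The first loops of these buffers differed at 7 of 36 bases, marked in capitals against Calb1:
Calb1: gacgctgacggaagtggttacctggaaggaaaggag
Calb2: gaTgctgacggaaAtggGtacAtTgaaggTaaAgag
Exons of Hpca overlap those of Tmem54 on the other strand, which had 0 and 0 counts in Fmr1-KO libraries and 4 and 0 in WT libraries. Exons of Ncald overlap Gm28221 on the other strand, at 0 counts in all 4 libraries, and Gm49397 on its own strand, which was not analysed here.

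The libraries held 5662429 and 6702841 counts in Fmr1-KO and 5478224 and 7213759 in WT, and the 9 members took 0.0733% to 0.111% of them. Levels across libraries are given as CPM, counts scaled to a fixed library total with TMM factors, and the SD covers the 2 libraries of a genotype. Fmr1 itself lay at 43.4 and 29.7 CPM in Fmr1-KO libraries against 73.1 and 91.6 CPM in WT libraries, the direction the labels imply. For Fmr1 the log2 fold change was -1.17 (SE 0.36), and its Benjamini-Hochberg adjusted p was 0.9999 in the quasi-likelihood test of edgeR. Dcx, the gene of the sort, lay at 456.2 and 211.0 CPM in Fmr1-KO libraries against 329.7 and 165.7 CPM in WT libraries, so it was higher in the replicate 1 library of each genotype. Markers of other cells were present too. The summed level of 10 oligodendrocyte lineage markers was 3966 and 12152 CPM in Fmr1-KO replicates 1 and 2, and 2012 and 12427 CPM in WT replicates 1 and 2. The summed level of 10 radial glia or astrocyte markers was 12784 and 8276 CPM in Fmr1-KO libraries and 12747 and 10261 CPM in WT libraries.

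No member passed the test between genotypes. Of the 8 tested members, edgeR called 0 higher (0% of all 14673 genes tested) and 0 lower (0%) at an adjusted p under 0.05. Without adjustment, 0 of the 8 were higher with p under 0.05, where 0.47% of all genes were, and 0 were lower, where 0.579% were. DESeq2 and limma voom also called 0 genes, where unadjusted p-values under 0.05 numbered 96 (higher) and 150 (lower) in DESeq2 and 42 (higher) and 45 (lower) in voom. Both Fmr1-KO libraries lay above both WT libraries in 0 of the 8 members, against 11.8% of all genes. Of the 8 estimates, 3 were below 0 (Calb1, Hpcal1 and Hpcal4), against 48.4% of all genes. The median log2 fold change was 0.08 over the members and 0.02 over all genes. Each tested member had an adjusted p of 0.9999 (edgeR), which was also the smallest over all 14673 genes tested. Fmr1 had the same adjusted p with an unadjusted p of 0.0134 (edgeR), so this value does not set the members apart. The plot of CPM by library shows the values behind these tests.

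**Figure D1:**
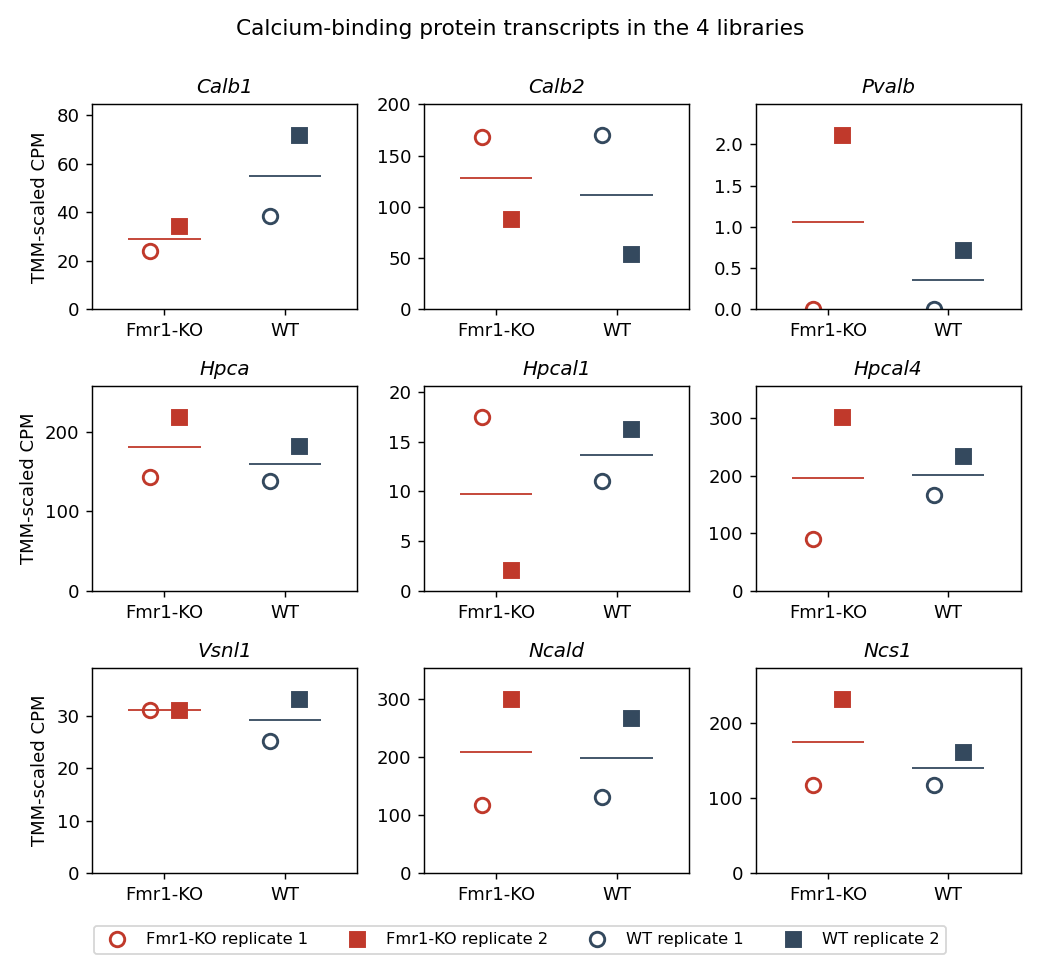
TMM-scaled CPM of each of the 9 calcium-binding protein genes (vertical axes from 0) in the Fmr1-KO libraries (red, left) and WT libraries (dark blue, right), with open circles for replicate 1, filled squares for replicate 2 and a line at the genotype mean. Calb1 is the one tested member in which both Fmr1-KO libraries lie below both WT libraries, while Calb2 is high in the replicate 1 library of each genotype and most sensors are high in replicate 2.

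Among the buffers, Calb1 came closest to a difference between genotypes. The gene spans chr4:15881264-15908064 on the plus strand (GRCm38, as are all positions here). It lay at 24.1 and 34.2 CPM in Fmr1-KO libraries, against 38.3 and 71.6 CPM in WT libraries. Both Fmr1-KO libraries were below both WT libraries, which was true of 13.7% of all tested genes, and the gap between the nearest libraries (34.2 and 38.3 CPM) was smaller than the spread within either genotype. The means were 29.1 ± 7.14 CPM in Fmr1-KO and 54.9 ± 23.5 CPM in WT (SD, n = 2 each). The log2 fold change was -0.92 (SE 0.45), its 95% interval -1.98 to 0.15 and its unadjusted p 0.0806 (edgeR's model over all genes). That interval runs from 0.254-fold to 1.11-fold, so these libraries do not separate a 2-fold reduction from no change. Fmr1-KO over WT was -0.66 between the replicate 1 libraries and -1.06 between the replicate 2 libraries on the log2 scale. The labels do not say that libraries of the same replicate number form a pair. The estimate stayed below 0 without each library in turn, and was smallest without WT replicate 2 (-0.41) and largest in size without WT replicate 1 (-1.30). In bulk samples such as these, fewer cells of a type and less RNA per cell cannot be told apart.

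Calb2 varied more between the libraries of a genotype than between genotypes. It is encoded at chr8:110137502-110168210 on the minus strand. It lay at 167.6 and 88.5 CPM in Fmr1-KO libraries, against 169.5 and 53.6 CPM in WT libraries. The replicate 1 libraries of both genotypes were nearly level and high, the replicate 2 libraries were low, and the genotypes overlapped. The means were 128.0 ± 55.9 CPM in Fmr1-KO and 111.6 ± 82.0 CPM in WT (SD, n = 2 each), and the log2 fold change was 0.20 (SE 0.57; 95% interval -1.15 to 1.55). Its sign was that of single libraries: the estimate was -0.33 without Fmr1-KO replicate 1 and -0.42 without WT replicate 2.

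Pvalb was barely detected. It is encoded at chr15:78191114-78206400 on the minus strand. It had 0 and 13 counts in Fmr1-KO libraries and 0 and 5 counts in WT libraries, so that only the replicate 2 libraries held any. A count of 0 allows up to 0.512 CPM in Fmr1-KO replicate 1 and 0.509 CPM in WT replicate 1, taking 3 counts as the limit. The 13 counts in Fmr1-KO replicate 2 stood for 2.11 CPM, with an exact 95% Poisson interval of 1.12 to 3.60, and the 5 counts in WT replicate 2 for 0.720 CPM, with an interval of 0.234 to 1.68. These limits and intervals cover counting error only, not the spread between libraries. PCR copies cannot be told from separate molecules in these libraries, and the intervals take no account of them. Several other interneuron markers were also sparse, although Gad1, an enzyme of GABA synthesis, lay at 60.3 to 97.9 CPM. Of 10, 3 and 1 stood at 0 counts in Fmr1-KO replicates 1 and 2, and 4 and 1 in WT replicates 1 and 2. The sum of the 10 was 1049 and 1113 CPM in Fmr1-KO libraries and 1075 and 791 CPM in WT libraries. Reln, also expressed outside interneurons, held most of it, at 707 to 1003 CPM, so the sum says little about the others. Of the 10, 6 were tested, and their median log2 ratio of replicate 2 over replicate 1 was 1.26 in Fmr1-KO and -0.17 in WT.

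Among the sensors, Hpca had the smallest standard error of the 8 tested members. Its locus is chr4:129111570-129122036 on the minus strand. It lay at 143.1 and 217.9 CPM in Fmr1-KO libraries, against 138.0 and 181.7 CPM in WT libraries. The edgeR fit gave a log2 fold change of 0.18 (SE 0.33; 95% interval -0.60 to 0.95), and the sign turned without Fmr1-KO replicate 2 (-0.17) or WT replicate 1 (-0.01). Its libraries fell into a lower pair, the replicate 1 libraries, and a higher pair, the replicate 2 libraries.

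Hpcal1, the member closest to Hpca in coding sequence, did not follow it over the libraries. It is encoded at chr12:17690856-17791933 on the plus strand. It lay at 17.4 and 2.11 CPM in Fmr1-KO libraries, against 11.02 and 16.3 CPM in WT libraries, from 102 and 13 counts in Fmr1-KO and 65 and 113 counts in WT. Fmr1-KO replicate 2 was the lowest of the 4: its 13 counts had an exact 95% Poisson interval of 6.92 to 22.2, against a lowest bound of 50.2 counts in the other 3 libraries. These intervals hold counting error alone, and libraries of a genotype differed by more than that over all genes. The means were 9.76 ± 10.8 CPM in Fmr1-KO and 13.6 ± 3.71 CPM in WT (SD, n = 2 each). The edgeR fit gave a log2 fold change of -0.48 (SE 0.97; 95% interval -2.79 to 1.82). It was 0.34 without Fmr1-KO replicate 2 and -2.69 without Fmr1-KO replicate 1. The ratio of Hpca to Hpcal1 per length was 4.77 and 60.0 in Fmr1-KO libraries and 7.26 and 6.48 in WT libraries, so 3 libraries held a ratio between 4.77 and 7.26.

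Hpcal4, a brain-expressed relative, had the lowest and the highest of its 4 values in the Fmr1-KO libraries. It is transcribed from chr4:123183227-123194701 on the plus strand, and it lay at 90.7 and 300.6 CPM in Fmr1-KO libraries, against 166.8 and 234.1 CPM in WT libraries. The edgeR fit gave a log2 fold change of -0.04 (SE 0.54; 95% interval -1.31 to 1.24), and it was 0.58 without Fmr1-KO replicate 1, -1.16 without Fmr1-KO replicate 2 and 0.22 without WT replicate 2.

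Vsnl1 varied little over the 4 libraries. Its locus is chr12:11325242-11436613 on the minus strand. It lay at 31.1 CPM in both Fmr1-KO libraries, against 25.1 and 33.1 CPM in WT libraries. The means were 31.1 ± 0.0152 CPM in Fmr1-KO and 29.1 ± 5.68 CPM in WT (SD, n = 2 each), and an SD over 2 libraries is itself poorly known. Its log2 fold change of 0.09 (SE 0.41) had a 95% interval of -0.87 to 1.07, and the sign turned without WT replicate 1 (-0.10).

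Ncald split by replicate number. It is encoded at chr15:37366175-37792570 on the minus strand. It lay at 117.5 and 299.4 CPM in Fmr1-KO libraries, against 130.5 and 266.5 CPM in WT libraries. The replicate 1 libraries of both genotypes were low and the replicate 2 libraries more than 2-fold higher. The edgeR fit gave a log2 fold change of 0.07 (SE 0.52; 95% interval -1.16 to 1.30), and the sign turned without Fmr1-KO replicate 2 (-0.77), without WT replicate 1 (-0.36) and when libraries were scaled by total counts alone (-0.00099).

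Ncs1, the sensor most distant from Hpca in coding sequence, is encoded at chr2:31245823-31295989 on the plus strand. It lay at 117.5 and 232.2 CPM in Fmr1-KO libraries, against 118.3 and 161.6 CPM in WT libraries. Fmr1-KO over WT was -0.01 between the replicate 1 libraries and 0.52 between the replicate 2 libraries on the log2 scale. The edgeR fit gave a log2 fold change of 0.32 (SE 0.39; 95% interval -0.60 to 1.25), and it was -0.26 without Fmr1-KO replicate 2. The plot of fold changes sets these intervals beside the differences within each replicate number.

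**Figure D2:**
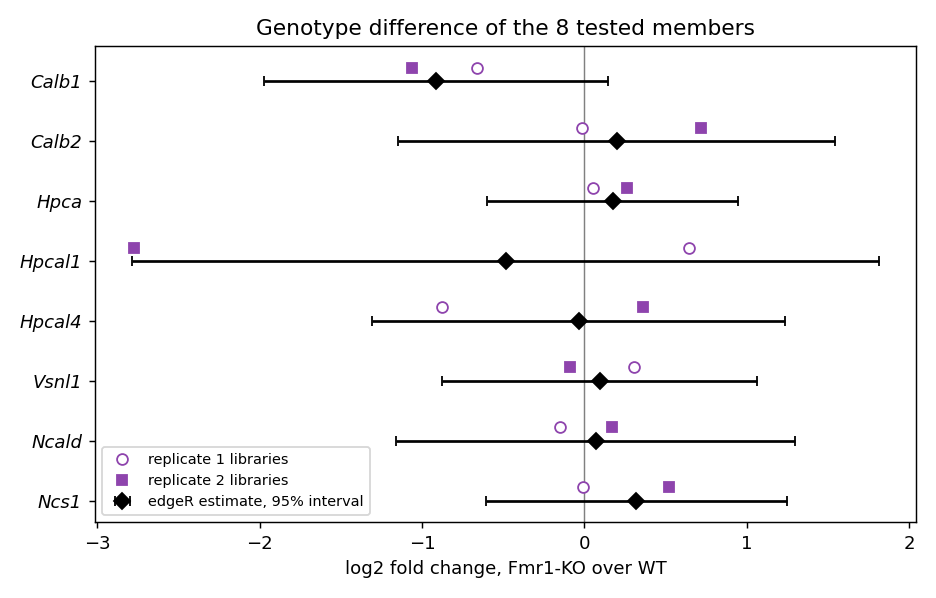
Log2 fold change of Fmr1-KO over WT (horizontal axis) for the 8 tested members, with black diamonds and bars for the edgeR estimate and its 95% interval, and purple symbols for the difference between the replicate 1 libraries (open circles) and between the replicate 2 libraries (filled squares). Every interval includes 0, from the narrowest for Hpca (-0.60 to 0.95) to the widest for Hpcal1 (-2.79 to 1.82), and Calb1 and Hpca are the members whose 2 within-replicate differences have the same sign.

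Levels can be compared between genes only per length, for which counts were divided by the deposited gene length and scaled to the same total within each library, giving TPM, a unit that takes gene length into account. Calb2 had the highest mean in both genotypes and Hpca the next, but Calb2 led in the replicate 1 libraries alone. Calb2 averaged 190.7 ± 110 TPM in Fmr1-KO and 210.4 ± 185 TPM in WT, and Hpca 151.5 ± 20.9 TPM in Fmr1-KO and 163.6 ± 2.69 TPM in WT (SD, n = 2 each). Their ranges overlapped in both genotypes, so their order is not settled. In replicate 2, Calb2 lay at 113.1 TPM in Fmr1-KO, below Hpca (166.3 TPM) and Hpcal4 (125.5 TPM), and at 79.9 TPM in WT, below Hpca (161.7 TPM), Hpcal4 (114.0 TPM), Ncald (99.2 TPM) and Ncs1 (90.3 TPM). In Fmr1-KO libraries Ncs1 (90.8 TPM), Hpcal4 (86.4 TPM) and Ncald (71.2 TPM) followed with overlapping ranges, then Vsnl1 (39.9 TPM), and then Hpcal1 (15.7 TPM) and Calb1 (14.8 TPM), whose ranges overlapped. In WT libraries Hpcal4 (111.8 TPM) preceded Ncs1 (89.7 TPM) and Ncald (82.3 TPM), of which the last pair overlapped, and Vsnl1 (44.5 TPM), Calb1 (33.1 TPM) and Hpcal1 (23.9 TPM) followed without overlap. Pvalb was last in both, at 2.26 ± 3.19 TPM in Fmr1-KO and 0.899 ± 1.27 TPM in WT (SD, n = 2 each).

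**Figure D3:**
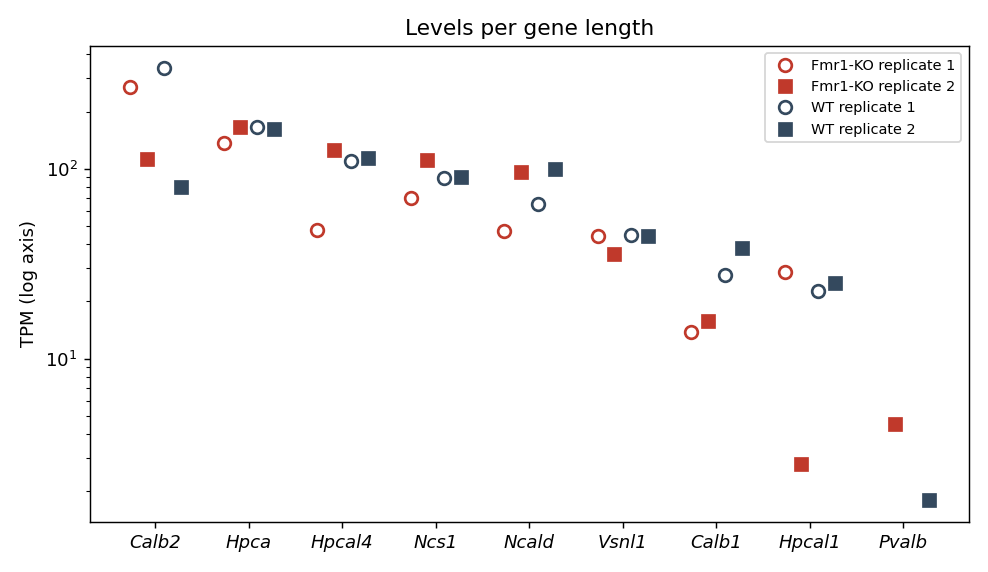
TPM (log axis) of the 9 members, ordered by their mean over the 4 libraries, in Fmr1-KO libraries (red) and WT libraries (dark blue), with open circles for replicate 1 and filled squares for replicate 2. Pvalb had 0 counts in both replicate 1 libraries, which a log axis cannot show. Hpcal1 spans 2.77 to 28.7 TPM, with its lowest value in Fmr1-KO replicate 2, and Calb2 spans 79.9 to 340.9 TPM, while Hpca stays between 136.7 and 166.3 TPM.

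The ratio of Calb2 to Calb1, an early and a late buffer of granule neurons, can be read within each library. It is free of scaling between libraries but rests on the deposited gene lengths, 1743 bases for Calb2 and 4846 for Calb1. Calretinin is also made by mossy cells and by some interneurons, and the part of granule neurons in the ratio was not tested. Calb2 exceeded Calb1 per length in all 4 libraries, by 19.3-fold and 7.19-fold in Fmr1-KO replicates 1 and 2 and by 12.3-fold and 2.08-fold in WT replicates 1 and 2. In WT replicate 2 this held only per length, since Calb2 had 372 counts there and Calb1 had 497. Within each replicate number, which the labels do not say marks a pair, the ratio was higher in the Fmr1-KO library, but the genotypes overlapped. The mean log2 ratio was 3.56 ± 1.01 in Fmr1-KO and 2.34 ± 1.81 in WT (SD, n = 2 each), and an exact two-sided permutation test gave p = 0.667, where 2 libraries against 2 cannot go below 0.333. The ratio of Calb2 to Dcx per length was steadier, at 2.66 and 3.04 in Fmr1-KO libraries and 3.73 and 2.35 in WT libraries.

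By TMM, every tested member except Hpcal1 moved between replicates in the same direction in both genotypes. Calb2 was lower in replicate 2 than in replicate 1 in both genotypes, by a log2 ratio of -0.92 in Fmr1-KO and -1.66 in WT. In contrast, Calb1, Hpca, Hpcal4, Vsnl1, Ncald and Ncs1 were higher in replicate 2 in both genotypes. For Vsnl1 the Fmr1-KO ratio was 0.00098, and it turned to -0.17 when libraries were scaled by total counts alone. That makes 6 of 8 tested members higher in replicate 2 in both genotypes, against 32.3% of all genes, and 1 of 8 lower in both, against 33.5%. Scaling by total counts alone gave 5 and 1 members, DESeq2 size factors 6 and 1, and TPM 4 and 2, with Vsnl1 lower in both genotypes and Hpca lower in WT. On TPM the median ratio of all tested genes was itself -0.34 in Fmr1-KO and -0.43 in WT, and by total counts alone it was -0.18 in Fmr1-KO and -0.16 in WT. The median log2 ratio of the 8 members was 0.55 in Fmr1-KO and 0.47 in WT, against medians over all genes of -0.02 in Fmr1-KO and -0.0038 in WT. With 1 library on each side of these ratios there is no test.

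Past 2-fold, Ncald was higher in replicate 2 in both genotypes, with log2 ratios of 1.35 in Fmr1-KO and 1.03 in WT, as were 6.17% of all genes. In WT this ratio fell short of 2-fold by total counts alone (0.87) and on TPM (0.60), so that no member was then past 2-fold higher in both genotypes. By TMM, 0 members were lower past 2-fold in both genotypes, against 5.33% of all genes. Past 2-fold in opposite directions were 0, against 3.31%. By total counts alone Calb2 was lower past 2-fold in both genotypes (-1.09 in Fmr1-KO, -1.82 in WT). On TPM it was as well (-1.24 in Fmr1-KO, -2.09 in WT). The share of all genes under these scalings is not given here. Hpcal4 passed 2-fold in Fmr1-KO alone (1.73, against 0.49 in WT), so 2 of 8 members were past 2-fold higher in replicate 2 in Fmr1-KO, against 16.1% of all genes, and 1 of 8 in WT, against 12.8%. Lower past 2-fold were Hpcal1 in Fmr1-KO (-2.87), where 18.3% of all genes were, and Calb2 in WT (-1.66), where 11% of all genes were. Hpcal1 was the member with opposite directions, since its ratio in WT was 0.55.

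Marker lists of cell types moved between the same libraries. Over all tested genes, 32.3% were higher and 33.5% lower in replicate 2 in both genotypes. Of 12 neuroblast and immature granule neuron markers, 11 were lower in replicate 2 in both genotypes, as Calb2 was, with median log2 ratios of -0.88 in Fmr1-KO and -0.79 in WT. Of 10 mature granule neuron markers, 7 were higher in replicate 2 in both genotypes, with medians of 0.08 in Fmr1-KO and 0.51 in WT. That count depended on scaling: by total counts alone, and likewise on TPM, 4 of the 10 were higher in both and 4 lower in both, alternatives chosen after seeing the data. All 10 oligodendrocyte lineage markers were higher in replicate 2 in both genotypes (9 on TPM), with medians of 1.59 in Fmr1-KO and 2.59 in WT. Of 10 radial glia or astrocyte markers, 9 were lower in both, with medians of -0.75 in Fmr1-KO and -0.41 in WT. Of 7 markers of dividing progenitors, 5 were lower in both, with medians of -1.81 in Fmr1-KO and -0.22 in WT. Of 6 tested interneuron markers, 2 were higher and 1 lower in both, with medians of 1.26 in Fmr1-KO and -0.17 in WT. The 8 markers of CA pyramidal or mossy neurons, some of which make calretinin, summed to 50.9 and 72.9 CPM in Fmr1-KO libraries and 67.8 and 73.3 CPM in WT libraries. Of these, Wfs1 lay at 28.9 to 37.1 CPM and Cpne4 at 7.00 to 37.2 CPM over the 4 libraries, while Spink8 and Calcr had 0 counts in all 4. The 10 markers of microglia, endothelium and blood summed to 38.9 and 62.4 CPM in Fmr1-KO libraries and 23.2 and 105.4 CPM in WT libraries. The part of these cell types in the levels of the 9 members was not tested.

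**Figure D4:**
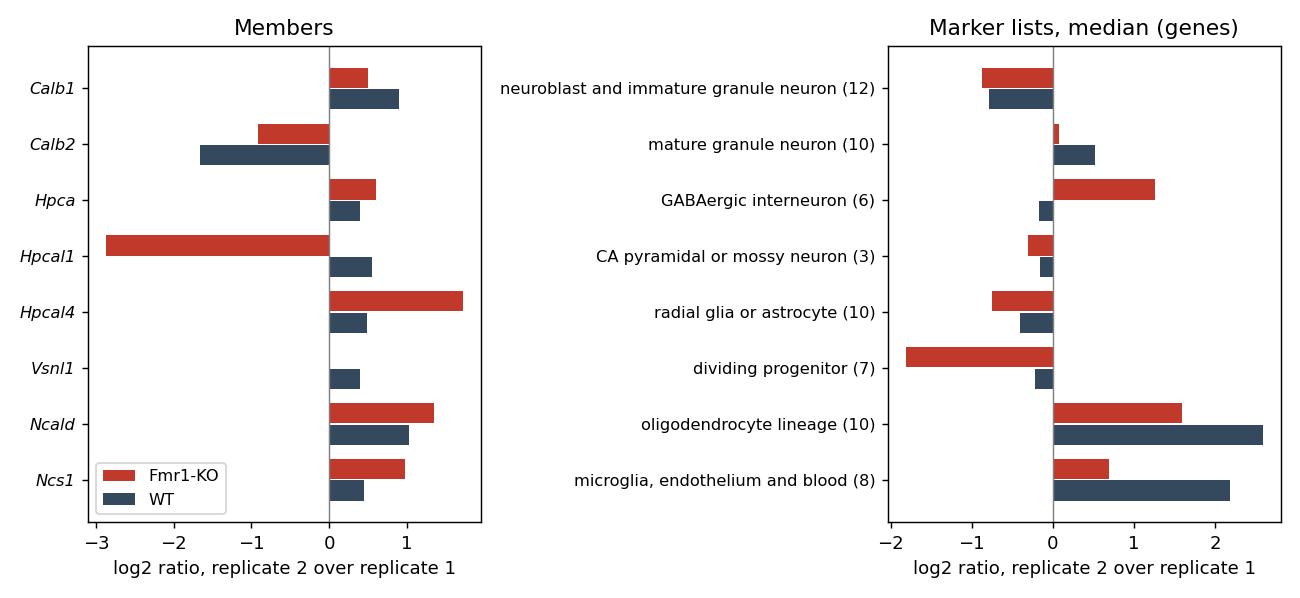
Log2 ratio of the replicate 2 library over the replicate 1 library (horizontal axes) in Fmr1-KO (red) and WT (dark blue), for the 8 tested members on the left and as the median of each marker list, with its number of tested genes, on the right. Calb2 points down in both genotypes, as do the medians of the neuroblast and immature granule neuron, radial glia or astrocyte, dividing progenitor and CA pyramidal or mossy neuron lists, Hpcal1 points in opposite directions in the 2 genotypes, and the bar of Vsnl1 in Fmr1-KO is too short to see.

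Among 87 genes of the pathway and marker lists with a mean of at least 20 CPM, the nearest patterns over the 4 libraries were sought by the root mean square difference of centred log2 CPM. This is a description over 4 libraries that share their preparation, with no p. The 3 genes nearest to Calb2 were Sox11 (0.188), Dcx (0.246) and Igfbpl1 (0.254), all from the neuroblast and immature granule neuron list, which supplied 12 of the 87. Sox11 is a transcription factor of young neurons. The genes nearest to Hpcal1 were Mcm2 (0.574), a DNA replication helicase subunit, Top2a (0.747) and Sox9 (0.791). Mcm2 and Top2a belong to the list of dividing progenitors. Near Ncald lay Ppp3r1 (0.0708), the regulatory subunit of calcineurin, and C1ql3 (0.116), a mature granule neuron marker. Near Hpca lay Caln1 (0.0639), Sdf4 (0.0904) and Gad1 (0.0948), and near Hpcal4 lay Chp1 (0.217), Ppp3r1 (0.228) and S100a1 (0.28). Calb1 was nearest to Efhd1 (0.23), an EF-hand protein of mitochondria, S100a1 (0.309) and Stim2 (0.315), a calcium sensor of the endoplasmic reticulum. Vsnl1 was nearest to Micu2 (0.0903), Stim1 (0.11) and Slc8a2 (0.118), and Ncs1 to Micu3 (0.0803), Gad1 (0.145) and Itpr2 (0.16).

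The other genes of calcium sensing and handling gave no call between genotypes either, and 0 of those tested in these 3 lists had an unadjusted p under 0.05. Of 7 other neuronal calcium sensors, 4 were tested, the KChIP genes that bind A-type potassium channels, and edgeR called 0 higher and 0 lower. All 4 estimates were below 0, with a median log2 fold change of -0.71 against 0.02 over all genes. Kcnip1 (-1.96, SE 0.99) and Kcnip4 (-1.26, SE 0.69) had the lowest estimates and at most 129 counts in any library. Kcnip1 had 1.02 and 6.16 CPM in Fmr1-KO libraries and 11.4 and 16.7 CPM in WT libraries, and Kcnip4 had 6.15 and 5.99 CPM in Fmr1-KO libraries and 10.5 and 18.6 CPM in WT libraries. In these 2 of the 4 tested genes both Fmr1-KO libraries lay below both WT libraries, against 13.7% of all genes. The more abundant Kcnip3 had 124.5 and 224.9 CPM in Fmr1-KO libraries and 150.7 and 219.9 CPM in WT libraries, and Kcnip2 had 91.6 and 70.6 CPM in Fmr1-KO libraries and 93.6 and 87.7 CPM in WT libraries. Their log2 fold changes of -0.09 for Kcnip3 and -0.16 for Kcnip2 were smaller than their standard errors and each turned sign without at least 1 library. Rcvrn and Guca1a, which serve in photoreceptors, had 0 counts in all 4 libraries.

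Of 27 calmodulins and other EF-hand proteins, 25 were tested, and edgeR called 0 higher and 0 lower, with 13 estimates above 0 and 12 below and a median of 0.02. Calm3, a calmodulin gene, had 585.7 and 848.3 CPM in Fmr1-KO libraries and 724.2 and 816.2 CPM in WT libraries. It was higher in replicate 2 in both genotypes, as were 17 of the 25, against 32.3% of all genes. On the TPM scale it was lower in WT replicate 2, and 10 of the 25 were higher in both. Of 24 calcium pumps, exchangers and store channels, 23 were tested, with 0 called higher and 0 lower, 13 estimates above 0 and 10 below and a median of 0.06. Atp2b1, a plasma membrane calcium pump, had 611.7 and 975.7 CPM in Fmr1-KO libraries and 688.0 and 749.4 CPM in WT libraries. Ryr2, a calcium release channel of the endoplasmic reticulum, had 493.8 and 489.5 CPM in Fmr1-KO libraries and 555.9 and 558.0 CPM in WT libraries. Both Fmr1-KO libraries were below both WT libraries for Ryr2, as in 13.7% of all genes, with a log2 fold change of -0.18 (SE 0.25) and an adjusted p of 0.9999 (edgeR).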

How the data were processed

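Gene expression was measured by RNA sequencing of 2 Fmr1-KO and 2 WT libraries. Raw counts for 52636 genes were deposited by the authors in a single table, with gene lengths and 0 further columns of per-sample values. STAR 2.5.3a and the GRCm38 build appear in the submitters' processing notes, and alignment was to GRCm38, per the labels' protocols. The poly(A)-selected libraries are strand-specific, per the labels' protocols, while how reads were counted, and with which strand option, is not given in the sources used here.

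Counts passing filterByExpr (14673 genes) were scaled by TMM and tested with edgeR 4.0.16 (R 4.3.3; robust quasi-likelihood F-test, two-sided, genotype as the only term), with Benjamini-Hochberg adjustment over all genes and calls at an adjusted p under 0.05. Each standard error was obtained as |log2 fold change| divided by the root of F. Log2 ratios between libraries used a prior count of 2, except that those on TPM were taken after adding 0.1 TPM. Alternatives were other scalings and filters, DESeq2 1.42.0, limma 3.58.1 voom, summed rows, a replicate block and leaving out each library. Positions and coding sequences came from GENCODE M21 on GRCm38, aligned with Biopython 1.88. Named were the 9 members, Fmr1, Dcx, the 2 tested genes with the highest CPM of each calcium list, and the nearest patterns, of which 1 gene is not reported here. Marker lists are given as sums and counts. Reln, Gad1, Kcnip1, Kcnip4, Rcvrn, Guca1a, Wfs1, Cpne4, Spink8, Calcr and genes overlapping a member were named after their values were seen. The members and lists were chosen with earlier results of these data known.

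Same-genotype libraries were not copies of each other: chi-square over its degrees of freedom was 54.2 in Fmr1-KO and 38.2 in WT.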

Additional observations from a re-analysis of the deposited data

How the results depend on the processing

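Of the 8 tested members, none passed an adjusted p under 0.05 in any of the 12 alternatives. With the replicate number as a block, 10 genes were called over all genes (7 higher, 3 lower in Fmr1-KO), none of them a member, where the fit without the block called 0. The block is not backed by the labels. Same-numbered libraries deviated together from their genotype means with a correlation of 0.364 across genes. With 2 libraries per genotype, the deviations of replicate 2 mirror those of replicate 1, so this is a single comparison. Under the block Calb1 had a log2 fold change of -0.87 (unadjusted p 0.0125, adjusted p 0.741), and its adjusted p over all alternatives ran from 0.741 to 1. Genes at an unadjusted p under 0.05 made up 1.05% of those tested, 5.30% with the block, and 6.57% and 3.76% without Fmr1-KO replicates 1 and 2 and 0.356% and 1.33% without WT replicates 1 and 2, with 0 called in each of these 4.

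Leaving out single libraries turned signs. The log2 fold changes then ran from -0.42 to 1.25 for Calb2, -0.17 to 0.45 for Hpca, -2.69 to 0.34 for Hpcal1, -1.16 to 0.58 for Hpcal4, -0.10 to 0.30 for Vsnl1, -0.77 to 0.66 for Ncald and -0.26 to 0.73 for Ncs1. They ran from -0.23 to 1.003 for Dcx, -0.59 to 0.28 for Kcnip3, -0.36 to 0.0013 for Kcnip2, -0.41 to 0.14 for Calm3 and -0.25 to 0.44 for Atp2b1. A genotype left with 1 library was assumed to vary like the other. By total counts alone Ncald reached -0.00099. Members past 2-fold between the libraries of a genotype then numbered 4 of 8 in Fmr1-KO, not 3, and 1 of 8 in WT, not 2. Over all 14673 genes tested, 5159 were past 2-fold in Fmr1-KO by total counts alone, against 5050 by TMM. In WT 3655 were, against 3492 by TMM. The cause of these changes was not tested. Pvalb, at 0 to 13 counts, was too low to be tested.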
